A study of Mus musculus with 4 samples.

Results

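Liver mRNA after deletion of Rps6 alone was compared with wild-type liver, 1 array against 1 array, over all genes that the arrays measured. Affymetrix arrays covering the mouse genome carried RNA from 5-week-old mice, and each array held the RNA of 3 livers mixed in equal amounts. The WT array came from mice without Cre. The ΔS6 array came from Rps6lox/lox:Alb-Cre mice, in which Cre recombinase driven by the albumin promoter removes the floxed Rps6 gene in hepatoblasts, the fetal cells from which hepatocytes and bile duct cells arise. Deletion in this model is incomplete and patchy, so the ΔS6 RNA mixed deleted and undeleted cells. Each difference was checked against the array of Alb-c-Myc mice, in which the albumin promoter drives c-Myc and Rps6 is intact. The paper describes this amount of c-Myc as enough to raise ribosome biogenesis and hepatocyte size, so this array is no neutral reference for growth genes. The array of ΔS6:c-Myc mice, which carry both changes, is given beside some genes. The methods describe male mice that were not fasted and were killed in the morning. The members of the comparison were genes named by at least 1 probe set with a single symbol, each read from whichever of its probe sets was brightest on average over the 4 arrays, and kept where the log2 value reached 6 on the WT or the ΔS6 array. This kept 14226 of 18193 genes.

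Rps6 is a protein of the small (40S) ribosomal subunit, and cells that lack it cannot make new 40S subunits, so that free large-subunit proteins stabilise p53. Hepatocytes carry out most metabolism of the liver and secrete most plasma proteins, while the ducts are lined by cholangiocytes, which express keratins, junction proteins and mucosal products that hepatocytes lack. When hepatocytes are lost and cannot divide, undifferentiated epithelial cells of the duct region can expand, and macrophages and matrix-producing stellate cells become active. In RNA from whole liver, fewer cells of a type and less RNA per cell cannot be told apart.

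The deleted gene and the labels were examined first. Each of 9 probe sets that Rps6 shares with the pseudogene Rps6-ps4 read lower on ΔS6 than on WT, with a median log2 ratio of -0.29, and the 2 probe sets of Rps6 alone differed in sign. The defining genes of hepatocytes were present on ΔS6: of 14 kept genes, most of them very bright, 1 passed 2-fold downward, Cebpa (-1.11), and 0 upward, and the median was -0.06. Of 28 hepatocyte transcription factors, however, 25 lay below 0, and 5 of these were past 2-fold. The WT array stood apart from its label. Xist, which coats the inactive X chromosome of female cells, had a log2 value of 11.84 on WT, 5.88 on ΔS6, 6.29 on Alb-c-Myc and 6.33 on ΔS6:c-Myc, although the mice are described as male. Y-linked genes were present on WT as well, with Eif2s3y, Kdm5d and Uty within 2-fold of ΔS6. All 13 kept pancreatic acinar genes were at least 2-fold higher on WT than on ΔS6, with a median of -2.24, which was -0.58 against Alb-c-Myc. Both arrays with intact Rps6 are therefore used. Unless stated otherwise, higher and lower below mean at least 2-fold against WT, a single value in parentheses is the log2 difference of ΔS6 from WT, and a pair joined by "to" gives the log2 values on WT and ΔS6. RNA integrity was alike: the 3' probe set of Actb exceeded the 5' probe set by 0.71 on WT and on ΔS6, and by 0.72 and 0.63 on the other arrays.

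ΔS6 liver differed from WT liver in far more genes than Alb-c-Myc liver did, and mostly upward. At least 2-fold higher than WT were 1298 genes, 9.12% of those kept, and at least 2-fold lower were 458, or 3.22%. The log2 ratios had an SD of 0.78 and a median of -0.00, and 12.3% of genes differed by 2-fold or more in either direction. For Alb-c-Myc minus WT the SD was 0.28 and 0.956% differed by as much. Against Alb-c-Myc, ΔS6 was at least 2-fold higher in 1263 genes (8.88%) and lower in 403 (2.83%). Past 2-fold against both arrays were 1083 higher genes (7.61%) and 340 lower genes (2.39%). These counts share the ΔS6 array, so a chance value on it enters both ratios.

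Higher genes outnumbered lower genes at larger sizes too. At least 4-fold higher than WT were 360 genes (2.53%) against 99 lower (0.696%), and at least 8-fold higher were 104 (0.731%) against 32 lower (0.225%). Past the same fold against both references were 292 higher (2.05%) and 56 lower genes (0.394%) at 4-fold, and 85 (0.597%) and 23 (0.162%) at 8-fold. Of the 104 genes past 8-fold, 104 were also at least 2-fold higher than Alb-c-Myc, and of the 32 lower genes 26 were at least 2-fold lower than it. A gene kept only because ΔS6 was bright had to be higher, so counts and medians over kept genes lean upward where a list has many dim genes. The balance depended on the level of the gene. Among genes whose brighter array lay between log2 6 and 8, 5.67% were 2-fold higher and 0.621% lower. Among those at 12 or more, 8.70% were higher and 10.0% were lower, so the most abundant transcripts were lower about as often as higher. With 1 array per genotype there is no replicate, and no test between genotypes can be made. Probe sets of the same gene gave ratios with an SD of 0.27 over 3377 genes at a mean log2 value of 8 or more, which serves here as a tolerance for single genes and is no measure of the spread between mice.

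**Figure D1:**
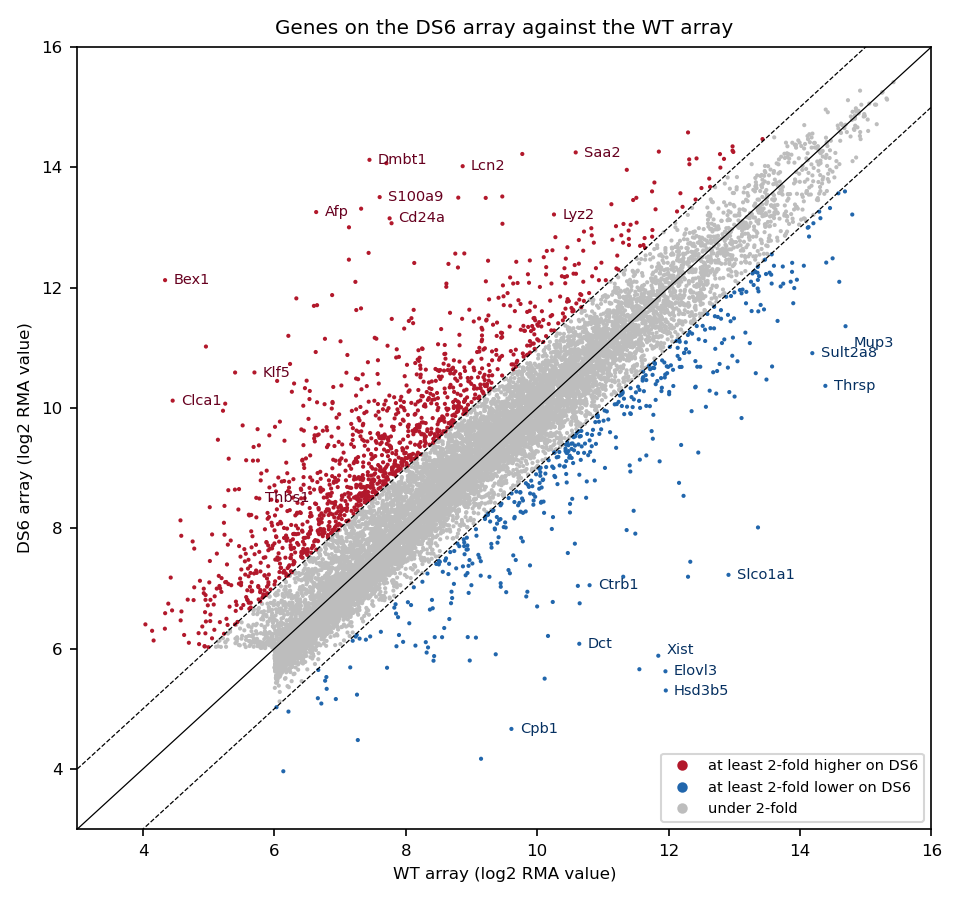
Log2 RMA values of the 14226 kept genes on the WT array (horizontal axis) and the ΔS6 array, labelled DS6 (vertical axis), 1 point per gene. The solid line marks equal values and the dashed lines 2-fold; 1298 genes lie above the upper dashed line and 458 below the lower one, and Xist and the pancreatic genes Cpb1 and Ctrb1 are among those below.

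Genes that were high on WT but not on Alb-c-Myc, or low on WT alone, were set apart before single genes were read. Among the largest falls against WT that were under 2-fold against Alb-c-Myc were Xist (-5.96 and -0.41), Sult3a1, a sulfotransferase of female liver (-4.98 and -0.10), and the pancreatic genes Ctrb1 (-3.74 and -0.71), Cel (-3.46 and -0.41), Cpa1 (-3.17 and -0.67) and Rnase1 (-2.62 and -0.33). The P450 genes Cyp2b13 (-3.58 and -0.02) and Cyp2c54 (-2.66 and -0.71), the acyl-CoA thioesterase Acot3 (-2.83 and -0.12) and 2210010C04Rik (-2.91 and -0.74) completed these 10. Among the 10 largest rises of this kind, 6 were genes of cell division. For Ccnb2 the log2 value was 6.61 on WT and 8.68 on Alb-c-Myc, and for Birc5 6.20 and 8.35. Whether the transgene raised these genes on Alb-c-Myc was not tested. The mitotic cyclin Ccnb2 had 2.93 against WT and 0.86 against Alb-c-Myc, the survivin gene Birc5 2.72 and 0.57, the kinase gene Pbk 2.55 and 0.90, Cdca3 2.50 and 0.59, Aurka 2.27 and 0.92, and Cdc20 2.21 and 0.61. The others were the ferritin receptor Scara5 (2.55 and 0.76), the CTP synthase Ctps (2.33 and 0.86), the asparagine synthetase Asns (2.26 and 0.02) and Cpne8 (2.23 and 0.65). Scara5, Cdca3, Aurka, Cpne8 and Cdc20 each had another probe set between -0.28 and -0.02. For Asns the ΔS6 value of 8.92 was that of Alb-c-Myc, 8.89, and WT alone was low at 6.66.

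**Figure D2:**
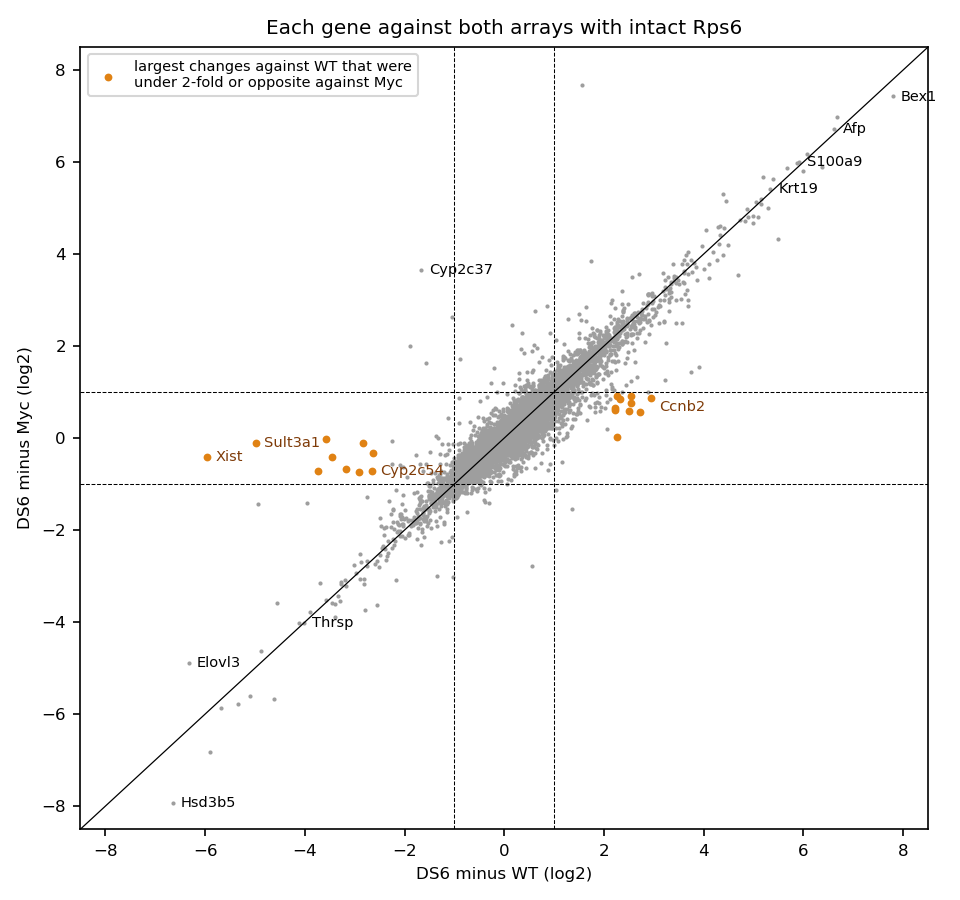
Log2 ratio of ΔS6 to WT (horizontal axis) against the log2 ratio of ΔS6 to Alb-c-Myc (vertical axis) for the 14226 kept genes, both ratios sharing the ΔS6 array. Orange points are the 10 largest rises and 10 largest falls against WT that were under 2-fold or opposite against Alb-c-Myc, such as Xist at -5.96 and -0.41; dashed lines mark 2-fold.

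The largest rises against WT that were also past 2-fold against Alb-c-Myc were led by fetal and progenitor genes. Bex1, a small adaptor protein of fetal and neural cells, had a log2 value of 4.34 on WT, 12.12 on ΔS6, 4.70 on Alb-c-Myc and 9.08 on ΔS6:c-Myc. Afp, the albumin of fetal serum, had 6.64, 13.26, 6.54 and 8.11 in the same order, and Igf2, a fetal growth factor, had 7.70, 14.07, 8.18 and 11.06. The WT and Alb-c-Myc values of these genes lay within 0.5 of each other, and both arrays of mice with the Rps6 deletion were higher. Of 26 kept genes on the list of oncofetal and stem cell genes, 17 were at least 2-fold higher than both references and 1 was lower than WT, Lgr4 (-1.09). The surface protein Ly6d (7.32 to 13.31 from WT to ΔS6), the transcription factor Sox4 (7.43 to 12.58), the glycoprotein Cd24a (7.75 to 13.15), the duct keratin Krt19 (7.13 to 12.47), the hyaluronan receptor Cd44 (7.25 to 11.63) and Prom1, a marker of progenitor cells (6.77 to 11.15), belong to the same group. Other probe sets of some of these genes were near 0, the lowest being -0.08 for Afp, -0.72 for Sox4 and -0.23 for Cd44. Klf5, a transcription factor of proliferating epithelium, went from 5.70 to 10.59 and was 6.03 on ΔS6:c-Myc, and the lowest of its 3 probe sets gave -0.03.

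Secreted, mucosal and immune products made up most of the remaining 30 largest rises. Dmbt1, a mucosal defence glycoprotein, had 7.45 on WT, 14.12 on ΔS6, 7.15 on Alb-c-Myc and 7.74 on ΔS6:c-Myc. Clca1, a secreted protein of goblet cells, had 4.45, 10.12, 4.24 and 4.24, and its other probe set differed from WT by -0.08. On these 2 genes ΔS6 was the high array and the other arrays lay within 0.6 of each other. The trefoil peptide Tff3 (4.70), the tight junction protein Cldn7 (4.49) and the galectin Lgals2 (5.00) were further epithelial genes. S100a9 (5.90), S100a8 (5.87) and Pglyrp1 (4.82) are products of neutrophils, Marco (5.29) and Cd14 (4.86) are receptors of macrophages, and Chil3 (4.74) is a lectin of both lineages. S100a6 (5.10) is made by epithelial and mesenchymal cells. Of plasma proteins, the iron-siderophore carrier Lcn2 went from 8.87 to 14.02, the protease inhibitor A2m from 6.65 to 11.71 and the acid glycoprotein Orm2 from 9.77 to 14.22.

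Several rises of this size fell in none of those groups. Sptssb, a small subunit of serine palmitoyltransferase, which starts sphingolipid synthesis, had 4.96 on WT, 11.02 on ΔS6, 4.84 on Alb-c-Myc and 4.57 on ΔS6:c-Myc. Sult1e1, the sulfotransferase that inactivates oestrogens, had 5.40, 10.59, 4.91 and 5.29. Both were below the floor of 6 on every array but ΔS6. The scavenger receptor Scara3 (4.99) and Slc25a24, a mitochondrial carrier of ATP-Mg and phosphate (4.41), were also higher, and for Slc25a24 the other probe set gave 3.68. Psrc1, a spindle protein and p53 target, had 6.33 on WT, 11.82 on ΔS6, 7.49 on Alb-c-Myc and 12.40 on ΔS6:c-Myc, and its 3 probe sets ranged from 0.06 to 5.49.

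Genes under log2 6 on both arrays with intact Rps6 and at 8 or more on ΔS6 numbered 31, and 16 of the 31 were also under 6 on ΔS6:c-Myc. They included Bex1, Sptssb, Klf5, Sult1e1 and Clca1, and for such genes the size of the ratio depends on an unmeasured floor. The reverse pattern, 8 or more on both and under 6 on ΔS6, held for 6 genes: Hsd3b5, Elovl3, Serpina4-ps1, Ugt2b38, the carbonic anhydrase Car1 and the laminin chain Lama3. Of these 6 genes, 0 were under 6 on ΔS6:c-Myc.

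**Figure D3:**
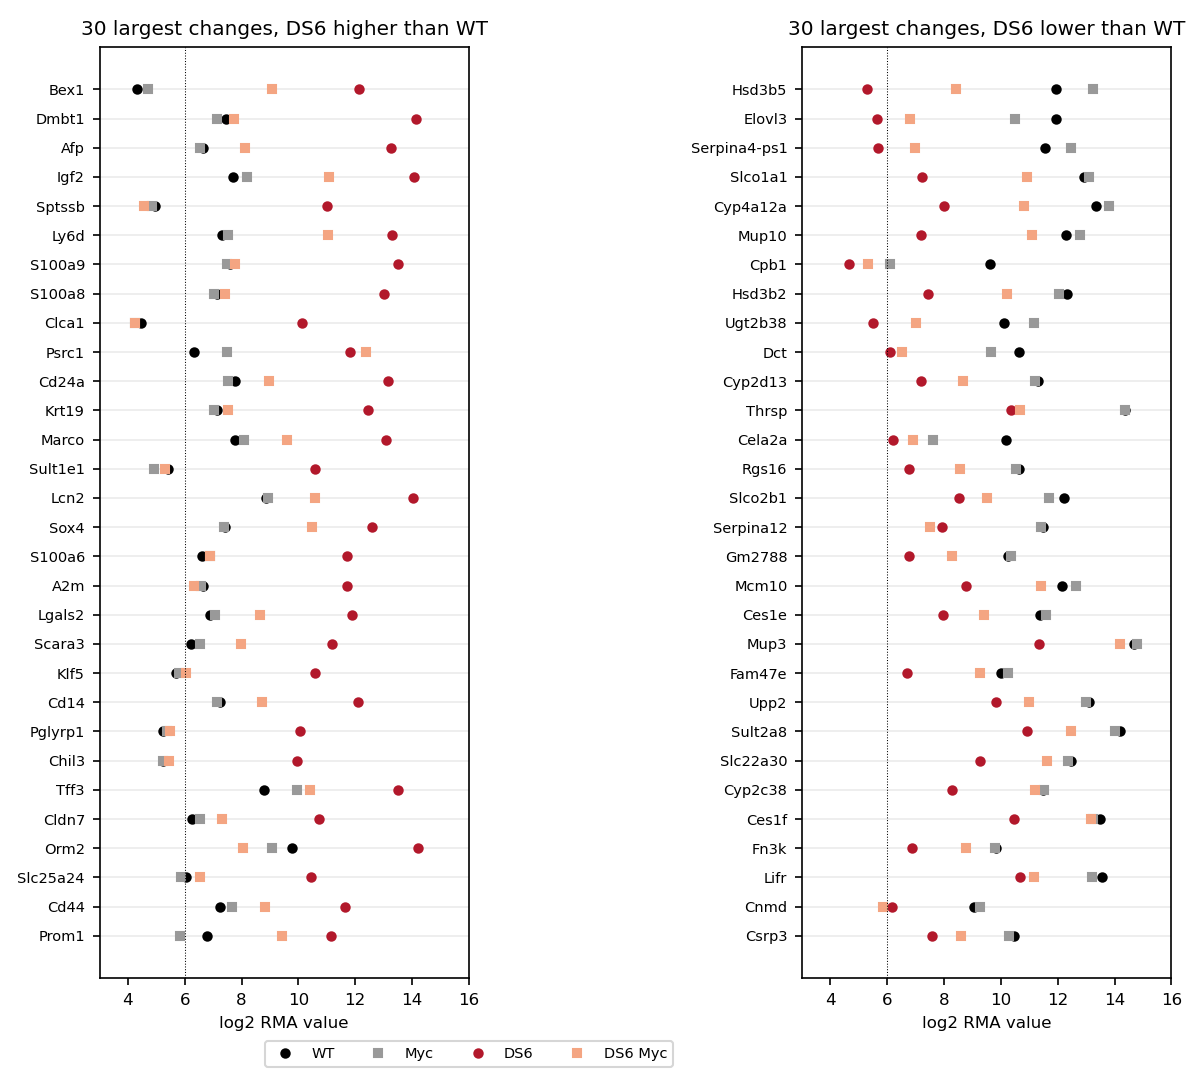
Log2 RMA values on each of the 4 arrays (symbols; DS6 stands for ΔS6, Myc for Alb-c-Myc and DS6 Myc for ΔS6:c-Myc) for the 30 largest rises (left) and 30 largest falls (right) of ΔS6 against WT that were also past 2-fold against Alb-c-Myc. The dotted line marks the floor of 6; WT and Myc lie within 2-fold of each other except for Psrc1, Tff3, Hsd3b5, Elovl3, Ugt2b38 and the pancreatic genes Cpb1 and Cela2a.

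The largest falls held steroid, lipid and drug enzymes of male liver and carriers of the hepatocyte surface. Hsd3b5, a male-specific keto-steroid reductase, had 11.96 on WT, 5.30 on ΔS6, 13.23 on Alb-c-Myc and 8.43 on ΔS6:c-Myc. Elovl3, an elongase of very long-chain fatty acids, had 11.95, 5.62, 10.51 and 6.79. The uptake carrier Slco1a1 had 12.91, 7.23, 13.09 and 10.94. In each case ΔS6 was the lowest array and ΔS6:c-Myc the next. Also among the 30 were Cyp4a12a (-5.35), an arachidonic acid hydroxylase, Cyp2d13 (-4.12), Cyp2c38 (-3.18), the glucuronosyltransferase Ugt2b38 (-4.61), the sulfotransferase Sult2a8 (-3.28), the steroid enzyme Hsd3b2 (-4.89), the carboxylesterases Ces1e (-3.39) and Ces1f (-3.02), and the carriers Slco2b1 (-3.69) and Slc22a30 (-3.19).

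Other falls of this size were metabolic or signalling genes. Thrsp, a nuclear protein that promotes fatty acid synthesis, had 14.39 on WT, 10.37 on ΔS6, 14.38 on Alb-c-Myc and 10.68 on ΔS6:c-Myc, so the arrays split by Rps6. Upp2, a uridine phosphorylase of liver, went from 13.11 to 9.83, and Fn3k, which removes fructosamine from proteins, from 9.83 to 6.87. The G-protein regulator Rgs16 went from 10.65 to 6.75, and its 3 probe sets ranged from -3.89 to -2.19. Lifr, the receptor of leukaemia inhibitory factor, went from 13.58 to 10.69, and its 3 probe sets ranged from -2.89 to -1.30. Other probe sets of Thrsp, Slco2b1 and Mup3 were closer to 0, at -0.47, -0.18 and -0.26. The serpins Serpina12 (-3.58) and Serpina4-ps1 (-5.90), the urinary proteins Mup10 (-5.10) and Mup3 (-3.34), the melanin enzyme Dct (-4.56), the muscle LIM protein Csrp3 (-2.88), Cnmd (-2.89), Fam47e (-3.30) and Gm2788 (-3.46) were lower against both arrays as well. Mup genes are near-identical in sequence, so a Mup value may stand for several of them. For Mcm10, a replication factor, the named probe set had 12.16 on WT and 8.75 on ΔS6 while 2 dimmer probe sets gave -0.61 and -0.11, so its identity as Mcm10 transcript is uncertain. Cpb1 (-4.94 against WT, -1.44 against Alb-c-Myc) and Cela2a (-3.95 and -1.40) are pancreatic and follow the RNA that set the WT array apart.

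A dim value inflates or hides a ratio less where both arrays are bright. Of 3584 genes at log2 10 or more on both arrays, the largest rises were the acute phase genes Saa2 (3.66) and Saa1 (2.28), the lysozymes Lyz2 (2.96) and Lyz1 (2.59), the tubulin Tubb2a (2.56), the matrix proteoglycan Lum (2.46), the actin-binding peptide Tmsb10 (2.41), the kinase Sgk1 (2.41), the antimicrobial Wfdc17 (2.39) and the lysosomal protease Ctss (2.26). Saa1 and Saa2, and Lyz1 and Lyz2, are close copies whose probe sets may share signal, and without probe sets that can match several transcripts Tmsb10 had -0.19. The largest falls among bright genes were Thrsp, Mup3, Sult2a8, Ces1f and Lifr, then Keg1, a glycine acyltransferase-like protein (-2.82), the deiodinase Dio1 (-2.75), Cyp2c54 (-2.66), Cyp7b1, an oxysterol hydroxylase (-2.55), and Hamp2, a relative of the iron hormone hepcidin (-2.50). Hamp, hepcidin itself, differed by 0.08.

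Some genes of intestinal and gastric mucosa were higher on the ΔS6 array. They stand on a list chosen after their values were seen, so its count describes the choice and supports nothing. Of 41 genes of the list on the array, 33 were kept, 9 of them under 6 on WT and so kept only through ΔS6, and 19 were at least 2-fold higher than both references. The median difference from WT over all 41 genes was 0.29, and over the kept genes it was 1.38. Apart from Clca1, the higher genes included the antibacterial surface protein Lypd8 (5.30 on WT, 9.16 on ΔS6, 5.44 on Alb-c-Myc and 5.21 on ΔS6:c-Myc), the keratin Krt20 (5.68, 9.35, 5.57 and 6.10), the microvillus protein Vil1 (5.40, 8.64, 5.41 and 5.91), the mucin Muc3 (5.24, 8.37, 5.36 and 5.34) and the chloride exchanger Slc26a3 (5.23, 8.09, 5.21 and 5.16). On each of them ΔS6 alone was raised. Tff2, Tff1, Spink4, Cdh17, Lgals4, Fcgbp, Olfm4 and the gastrokine Gkn2 (6.17 to 7.51) had the same order. The defining regulators of intestine were not higher: Cdx2 had 6.86 on WT and 6.59 on ΔS6, and the enterocyte enzyme Alpi had 6.14 and 5.77. The goblet cell mucin Muc2 had 6.26 and 6.37, and the gastric mucin Muc5ac 7.40 and 6.97. The part that gut tissue or biliary epithelium had in these values was not tested.

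Part of the epithelial structure genes were higher. Of 19 keratin and desmosome genes, 8 passed 2-fold upward and 0 downward, where 9.12% of all kept genes were higher. Besides Krt19 and Krt20 these were the duct keratin Krt7 (6.53 to 10.15), Krt8 (12.32 to 14.05) and its partner Krt18 (12.43 to 14.15), which hepatocytes also make, Krt23 (1.04, and 0.97 against Alb-c-Myc), the mesenchymal filament Vim (1.98) and Ppl (1.01). The plaque proteins Dsp (0.54) and Jup (0.51) lay within 2-fold. Of 26 junction genes, 6 were higher and 0 lower, with Cldn7, Cldn4 (2.12), Cldn8 (2.04), Cdh17 (2.11), the connexin Gja1 (2.06) and E-cadherin, Cdh1 (1.68). The hepatocyte connexins Gjb1 (-0.61) and Gjb2 (-0.67) were within 2-fold on the lower side. On the list of duct transport and mucus, 4 of 25 kept genes were under 6 on WT and so kept only through ΔS6. The median against WT was 1.00 over the 25 genes and 0.41 over all 29 on the array. Of the 25, 13 were higher and 1 was lower, the IgA transporter Pigr (-1.39, and -0.76 against Alb-c-Myc). They included the mucin Muc1 (6.63 to 10.93), the potassium channel subunit Kcne3 (4.57 to 8.13), Fxyd3 (7.02 to 10.37) and carbonic anhydrase Car2 (9.88 to 12.08), while the secretin receptor Sctr (-0.10), which marks mature cholangiocytes, and the water channel Aqp1 (0.09) differed from WT by less than the tolerance.

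Cytoskeletal genes were higher as well. Among 34 actin genes, 19 were at least 2-fold higher against both arrays and 0 lower, with medians of 1.33 and 1.23. After Vil1 the differences were 2.54 for the actin-binding Tagln2, 2.03 for the tropomyosin Tpm4, 1.82 for cytoplasmic actin Actg1 (12.31 to 14.13), 1.75 for the crosslinker Flna, 1.70 for smooth muscle actin Acta2 and 1.10 for the myosin Myh9. Ezrin, Ezr (-0.22), and plastin Pls3 (-0.50) did not share this. Of 17 tubulin and microtubule genes, 8 were higher and 1 was lower. Tubb6 (2.60), Tuba8 (2.45), the destabiliser Stmn1 (2.43), Tubb2b (2.13) and Tubb5 (2.04) were higher, and Tppp, which bundles microtubules, was lower (8.37 to 6.65). For Stmn1 the difference from Alb-c-Myc was 1.15. Of 20 annexin and S100 genes, 11 were higher and 0 lower, with Anxa13 (5.52 to 9.71), Anxa2 (9.47 to 13.06), Anxa3 (7.98 to 11.32) and Anxa1 (8.54 to 11.31) leading the annexins, and S100a10, the partner of Anxa2, at 0.31. Of these 20 genes, 3 were under 6 on WT and so kept only through ΔS6, Anxa13 among them. The median against WT was 1.38 over the 20 genes and 0.97 over all 22 on the array. Of 27 galectins, tetraspanins and other surface proteins, 13 were higher and 0 lower, among them Lgals3 (7.79 to 11.48), Lgals1 (9.89 to 12.45) and Cd9 (10.14 to 12.34).

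Matrix genes were also higher. Of 20 collagens, 9 were at least 2-fold higher than WT and 1, Col27a1, was lower (-1.07, and -0.70 against Alb-c-Myc). The fibrillar chains Col1a1 (8.22 to 10.71), Col3a1 (11.46 to 13.46), Col1a2 (10.57 to 12.38) and Col5a2 (8.35 to 10.42) and the basement membrane chains Col4a1 (1.76) and Col4a2 (1.25) were higher, whereas Col15a1 (-0.34) and Col18a1 (-0.37) lay near 0 on the lower side. Of 38 other matrix and remodelling genes, 24 were higher, 22 of them against both references, and 0 lower, with medians of 1.13 and 1.22. The protease Mmp7, or matrilysin, had 7.42 on WT and 10.76 on ΔS6, elastin Eln 8.59 and 11.05, and thrombospondin Thbs1 5.72 and 8.51. The crosslinker Loxl1 (2.24) and the inhibitor Timp1 (2.09) were higher too. Fibronectin, Fn1, which hepatocytes secrete, differed by 0.31. Of 12 stellate cell genes, 4 were higher: Lum, Pdgfrb (1.90), Pdgfra (1.85) and Dcn (1.04). The quiescence marker Lrat (-0.01) and the stellate cell marker Ngfr (-0.02) differed from WT by less than the tolerance. In contrast, 0 of 12 endothelial genes and 0 of 6 mesothelial genes were past 2-fold in either direction, with medians of 0.04 and -0.27. Of 5 genes of fat and muscle 1 was higher, the skeletal actin Acta1 (1.64).

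Signals that act on matrix and growth were higher in part. Of 32 genes of TGF-beta, BMP and activin, 16 were higher and 0 lower. The BMP regulator Bmper had 6.01 on WT and 9.69 on ΔS6, the BMP target Id1 8.05 and 11.45, and the activin antagonist follistatin, Fst, 7.32 and 9.61. The ligands Tgfb2 (1.60), Tgfb3 (1.50) and Tgfb1 (1.16) and the receptor Tgfbr2 (1.09) were higher, and the liver activins Inhbe (-0.98) and Inhbc (-0.87) were the lowest members. Of 38 genes of other growth factors and their receptors, 11 were higher and 0 lower, among them the ligands Pdgfc (2.15), Hgf (1.83) and Btc (1.64) and the collagen receptor Ddr1 (2.10). The hepatocyte receptors Egfr (-0.77), Met (-0.95) and Erbb3 (-0.58) were on the lower side within 2-fold of WT. Of 29 genes of Notch and Hippo output, 13 were higher and 1, Hes6, was lower (-1.26). Ankrd1 (5.30 to 8.63), Ccn2 (9.12 to 11.49) and Ccn1 (7.73 to 9.48) are targets of Yap, which itself differed by 0.10 (Yap1). Jag1, a Notch ligand (1.85), Hes1 (1.24) and Sox9 (2.45) were higher, with Notch2 at 0.59. Of 18 integrins, 7 were higher, led by the leukocyte chains Itgb2 (2.95) and Itgal (2.11), with the epithelial Itga6 at 1.99.

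Leukocyte genes were higher mainly for macrophages and neutrophils. Of 31 macrophage genes 25 were higher, and of 17 neutrophil genes 12 were higher. Their medians were 1.88 and 2.59, against -0.00 over all kept genes. Of the 17 neutrophil genes, 5 were under 6 on WT and so kept only through ΔS6. The median over all 21 neutrophil genes on the array was 2.28. The Kupffer cell genes Timd4 (7.77 to 9.53), Vsig4 (10.45 to 12.19) and Cd5l (11.20 to 13.02) were higher together with the general markers Adgre1 (8.82 to 10.77) and Csf1r (11.51 to 13.08), while Clec4f, another Kupffer cell gene, differed by 0.71 and the mannose receptor Mrc1 by 0.23. Among neutrophil genes, the granule genes Ngp (7.53 to 11.17), Ltf (6.88 to 10.10) and Camp (6.04 to 8.32) were higher and the receptors Csf3r (0.87) and Cxcr2 (-0.22) were within 2-fold. Of 18 lymphocyte genes, 3 were higher, Igha (8.75 to 12.57), the antibody joining chain Jchain (7.10 to 10.59) and Thy1 (6.10 to 8.08), and the T cell genes Cd3e (-0.03) and Cd8a (-0.14) and the B cell gene Cd79a (0.13) lay near 0. Class II antigen genes H2-Ab1 (2.62), H2-Aa (2.36), H2-Eb1 (2.28) and Cd74 (2.36) were higher and class I genes H2-K1 (0.07), H2-D1 (0.32) and B2m (0.01) were not past 2-fold. In all, 6 of 16 antigen presentation genes were higher and 1, Cd1d1, was lower (-1.02), and 7 of 39 interferon-stimulated genes were higher, with the list median at 0.36. Chemokines and receptors had 15 of 34 higher and NF-kB and TNF genes 17 of 39, each with 0 lower. Under 6 on WT, and so kept only through ΔS6, were 6 of the 34 and 2 of the 39. Tnf itself (0.02) and Il1b (0.87) stayed within 2-fold. Of 28 acute phase genes, 11 were higher and 1, Saa4, was lower (-1.19), and the classical reactants Hp (0.38), Fgb (0.11) and Crp (-0.90) were within 2-fold. Of 5 erythroid genes, 3 were lower, Car1 (-2.56), Klf1 (-1.75) and Alas2 (-1.15), and 0 of 6 platelet genes were past 2-fold.

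Some calls against WT were lost against Alb-c-Myc. Among lists with higher genes, 15 of 16 genes held against both arrays for TGF-beta, BMP and activin, where Ltbp3 did not (0.84). It was 10 of 11 for other growth factors, where Epha2 did not (0.85), 14 of 15 for chemokines (Cx3cr1 at 0.68), 16 of 17 for NF-kB and TNF (Tnip1 at 0.90), 5 of 7 for interferon-stimulated genes (Xaf1 at 0.50) and 10 of 11 for acute phase genes (Socs3 at 0.73). Among lists with lower genes, 6 of 7 held for fatty acid synthesis, 4 of 6 for gluconeogenesis and glycogen, 5 of 7 for the urea cycle and amino acid breakdown, 7 of 8 for bile acids and 7 of 9 for conjugation. The genes that did not hold included Fasn (-0.61), Gckr (-0.94), Kmo (-0.94), Slc27a5 (-0.89) and Sult1b1 (-0.98), of which all but Fasn lay just under 2-fold. Other losses were large. Sult3a1 on the conjugation list had -4.98 against WT and -0.10 against Alb-c-Myc. Of the 17 P450 genes lower than WT, 8 held, and the P450 gene Cyp2b13 had -3.58 and -0.02.

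**Figure D4:**
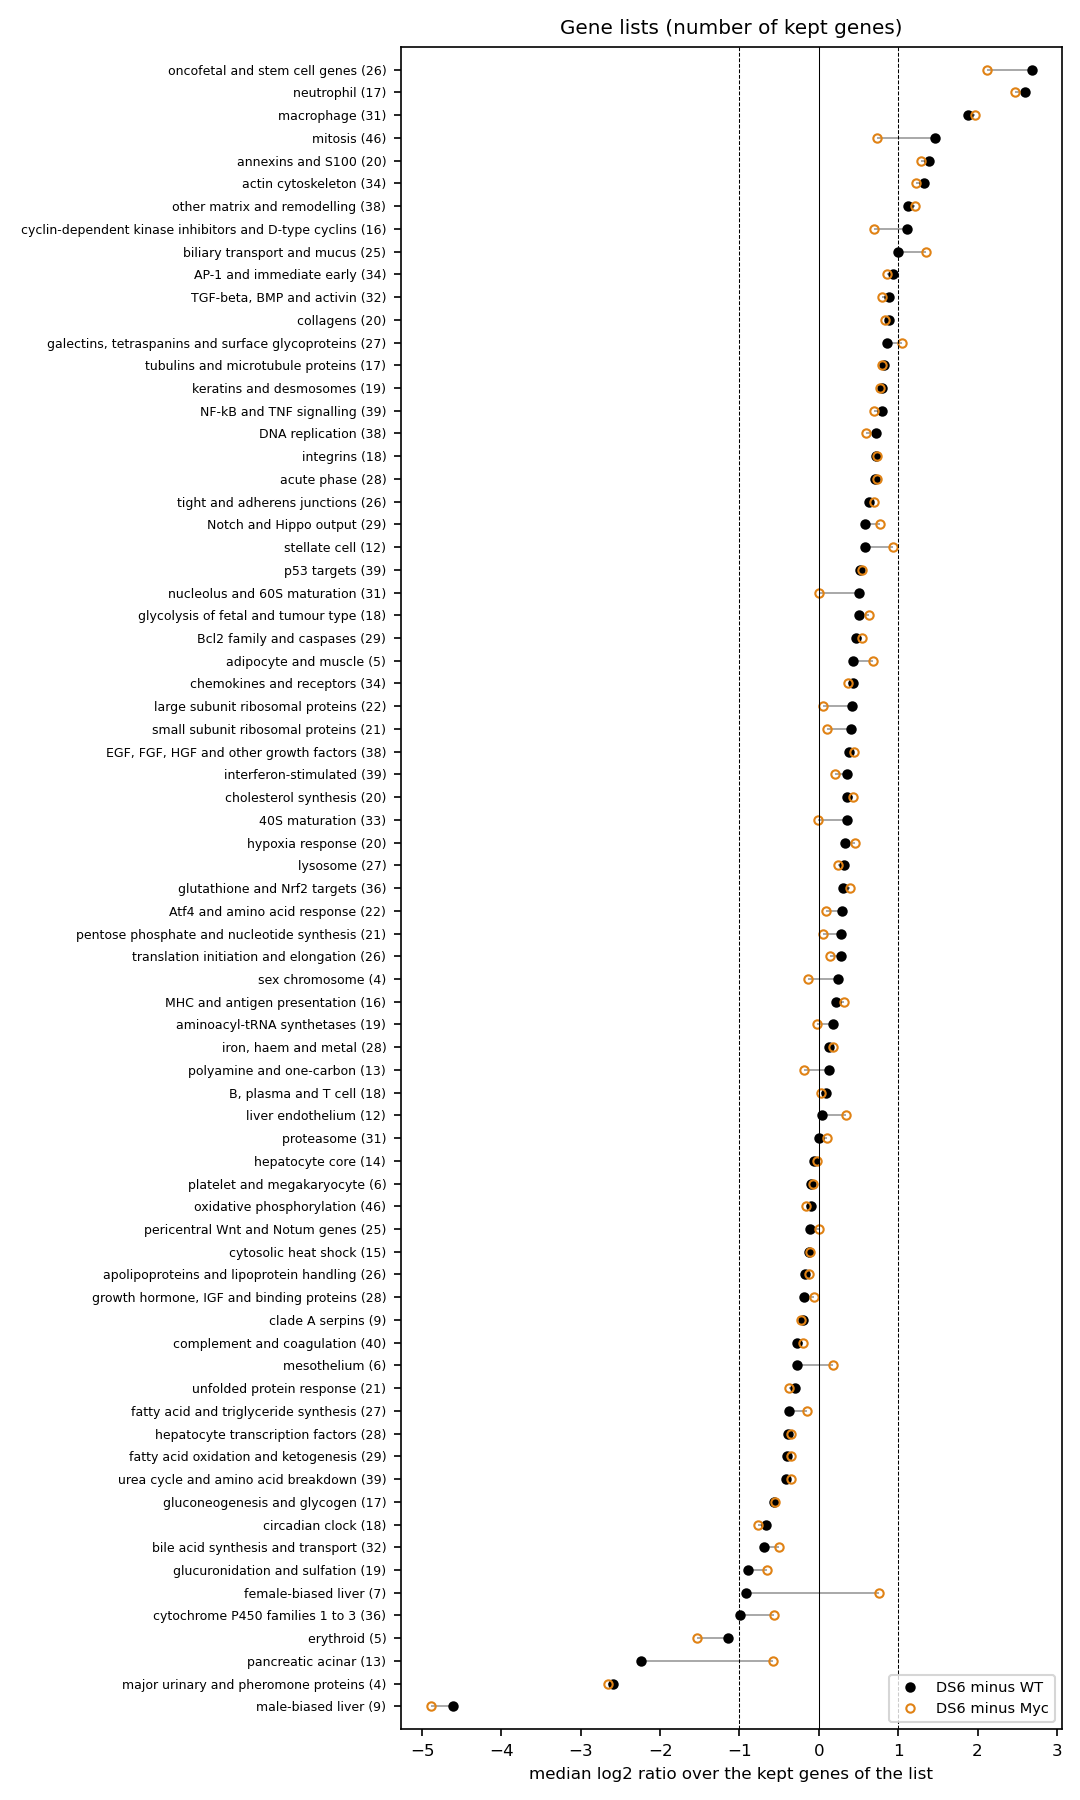
Median log2 ratio over the kept genes of each gene list (number of genes in brackets) for ΔS6 minus WT (black) and ΔS6 minus Alb-c-Myc (orange rings), joined by a line; dashed lines mark 2-fold. Black and orange lie close for most lists and apart for pancreatic acinar (-2.24 and -0.58), female-biased liver (-0.92 and 0.76) and mitosis (1.47 and 0.73).

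Lipid and sugar metabolism of the mature hepatocyte was lower at selected steps. Of 27 genes of fatty acid and triglyceride synthesis, 7 were lower and 3 were higher. With Thrsp, the lower genes were Acacb (10.50 to 8.41), whose malonyl-CoA controls fatty acid entry into mitochondria, the phosphatidate phosphatase Lpin1 (12.68 to 10.59), the glucose-sensing factor Mlxipl, also called ChREBP (13.37 to 11.61), Dgat2 (-1.24), Me1 (-1.16) and Fasn (-1.03, and -0.61 against Alb-c-Myc). The desaturase Scd2 was higher (7.32 to 11.66), and Scd1, the form of adult liver, differed by -0.43. The fat droplet protein Cidec (1.06) and the receptor Pparg (1.24) were higher than WT. The cytosolic enzymes Acly (0.06) and Acaca (-0.59) and the factor Srebf1 (-0.63) were within 2-fold. Of 20 cholesterol genes 2 were higher, Sqle (1.13) and Lss (1.07), a share near the 9.12% of all kept genes, 0 were lower and the median was 0.36. Of 29 genes of fatty acid oxidation and ketogenesis, 3 were lower, including the nuclear receptor Ppara (12.01 to 10.23), and 2 were higher, Pdk4 (8.02 to 10.72), which blocks pyruvate entry, and the thioesterase Acot2 (10.14 to 12.22). Cpt1a, the gate of oxidation, differed by -0.39.

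Sugar enzymes divided by isozyme. Of 17 genes of gluconeogenesis and glycogen, 6 were lower and 0 higher, with a median of -0.56: the fructokinase Khk (12.78 to 10.73), the liver pyruvate kinase Pklr (11.72 to 10.03), the glycogen synthase Gys2 (12.20 to 10.68), the glucose-6-phosphate carrier Slc37a4 (-1.17), Ppp1r3b (-1.17) and Gckr (-1.03). The gluconeogenic enzymes Pck1 (-0.43), G6pc (-0.51) and Fbp1 (-0.03) were within 2-fold. Of 18 glycolysis genes of fetal and tumour type, 5 were higher and 0 lower: the muscle and fetal pyruvate kinase Pkm (8.60 to 10.90), hexokinase Hk2 (6.58 to 8.80), the platelet phosphofructokinase Pfkp (6.60 to 8.64), the transporter Slc2a3 (6.39 to 8.27) and Pfkfb4 (1.06). Thus Pklr was lower and Pkm higher on the same array, against Alb-c-Myc by -1.84 and 2.21. Pgd of the pentose phosphate path was higher by 1.21, and of 21 genes of that path and nucleotide synthesis 3 were higher and 0 lower. Of 20 hypoxia response genes, 8 were higher, led by the prolyl hydroxylase Egln3 (9.70 to 12.08), and 2 were lower, Bnip3 (-1.04) and Pdk1 (-1.05), while Vegfa was at -0.87.

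Nitrogen, bile acid and drug metabolism had more lower than higher genes against WT. Of 39 genes of the urea cycle and amino acid breakdown, 7 were lower and 0 higher, with proline oxidase Prodh (-1.61), the tryptophan enzyme Haao (-1.50), histidase Hal (-1.37) and the urea cycle enzyme Otc (-1.12), whereas Cps1 (0.06), Arg1 (-0.07) and Ass1 (-0.42) were within 2-fold. Of 32 bile acid genes, 8 were lower and 1 higher. The uptake carriers Slco1b2 (13.86 to 12.10) and Slc10a1 (14.14 to 12.85), the synthesis enzymes Cyp27a1 (-1.35) and Cyp7b1 and the conjugating enzymes Slc27a5 (-1.16) and Baat (-1.11) were lower, and Abcc4, which exports bile acids back to blood, was higher (6.63 to 9.67). The rate-limiting enzyme Cyp7a1 (-0.67) and the canalicular pump Abcb11 (-0.91) were within 2-fold. Of 36 P450 genes of families 1 to 3, 17 were lower than WT and 2 were higher, Cyp1a1 (6.84 to 8.72) and Cyp2s1 (1.14). Against Alb-c-Myc the counts were even, with 8 of the 36 at least 2-fold higher and 8 at least 2-fold lower. The median of the 36 genes was still below 0, at -0.57 against Alb-c-Myc and -0.99 against WT. The 8 lower genes were all among the 17, and Cyp2j5 (-2.10), Cyp2f2 (-1.58) and Cyp2d9 (-1.62) were in them. Of 19 conjugation genes, 9 were lower and 1, Sult1c2, was higher (8.68 to 10.57), with Ugt3a2 (-2.16) and Ugt2a3 (-2.13) among the lower. Of 36 glutathione and Nrf2 genes 10 were higher and 0 lower, among them the carbonyl reductase Cbr3 (6.30 to 10.41), the plasma peroxidase Gpx3 (8.62 to 12.07), haem oxygenase Hmox1 (8.19 to 10.96), Mgst2 (5.73 to 8.18) and Srxn1 (9.58 to 11.35). The Nrf2 targets Nqo1 (0.59), Gclc (0.03) and Gclm (-0.05) were within 2-fold.

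Secreted plasma proteins other than acute phase reactants were split. Of 40 genes of complement and coagulation, 7 were lower, among them the terminal complement chains C8g (-1.82), C8b (-1.73) and C9 (-1.12) and the coagulation factor F7 (-1.07). The 4 higher genes, C1qa, C1qb, C1qc and properdin, Cfp (1.45), are made by macrophages and other leukocytes. Fibrinogen chains Fga (0.09) and Fgg (0.05) and prothrombin, F2 (-0.20), lay within the tolerance. Of 26 apolipoproteins and lipoprotein genes, 3 were higher, Apoa4 (1.39), Abcg1 and lipoprotein lipase, Lpl (1.19). The 1 lower gene was endothelial lipase, Lipg (-1.51), while Apoa1 (-0.01) and Apoe (-0.12) hardly differed. These shares were near those of all kept genes, 9.12% higher and 3.22% lower. Of 9 clade A serpins 2 were higher and 4 were lower, including Serpina6 (-1.69), the carrier of corticosterone, and Serpina7 (1.47), the carrier of thyroxine, was one of the higher. Of 28 genes of iron, haem and metal, 5 were higher and 1 was lower, with the metallothioneins Mt2 (1.98) and Mt1 (1.30) and the transferrin receptor Tfrc (1.14, and 0.47 against Alb-c-Myc) beside Lcn2. Of 13 genes of polyamines and one-carbon metabolism, 2 were higher, the spermine oxidase Smox (2.10) and the folate receptor Folr2 (1.10), where 9.12% of all kept genes were higher.

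Sex-biased liver genes were read mainly against Alb-c-Myc, which like ΔS6 had Xist near 6. Adult male livers depend on pulses of growth hormone for genes such as Hsd3b5 and the Mup genes, and female livers express others. Of 9 male-biased genes, 8 were lower than both references, with medians of -4.61 and -4.89. Of 7 female-biased genes, 3 were at least 2-fold lower than WT, and 0 of the 7 were 2-fold lower than Alb-c-Myc. Cyp2b9, a female-biased P450, had 11.77 on WT, 9.89 on ΔS6, 7.89 on Alb-c-Myc and 12.10 on ΔS6:c-Myc. Cyp2c37 had 13.75, 12.07, 8.41 and 11.07, and the sulfotransferase Sult2a2 had 11.39, 12.95, 5.28 and 12.31. These 3 genes were lowest on Alb-c-Myc, and their ratios to Alb-c-Myc were 2.00, 3.66 and 7.67. Sult2a2 and Cyp2c37 are on no female-biased list used here and were named after their values were seen. Of 28 genes of growth hormone, IGF and binding proteins, 4 were lower, the IGF carrier subunit Igfals (11.86 to 9.11), Fgf1 (-1.74), the growth hormone receptor Ghr (13.88 to 12.41) and Insr (-1.12). Igf1 differed by -0.61 and Stat5b by -0.56. Higher members besides Igf2 were Igfbp7 (1.21), Socs3 (1.11) and Igfbp1 (1.04, and 2.12 against Alb-c-Myc).

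Clock output genes were lower. Of 18 clock genes, 8 were lower than both references and 1 was higher. The clock output factors Dbp (12.19 to 9.38), Tef (11.99 to 10.68) and Hlf (10.04 to 8.75), the period genes Per3 (9.76 to 7.84) and Per2 (8.97 to 7.47), and Ciart (8.96 to 7.38), Cry2 (-1.14) and Nr1d2 (-1.12) were lower. Arntl, also called Bmal1, was higher by 1.55 against WT and 2.57 against Alb-c-Myc, with its other, dimmer probe set at -0.07. Clock (-0.13) and Cry1 (-0.06) differed from WT by less than the tolerance. Usp2, a clock-driven protease that is on no list used here, was lower too (11.41 to 9.05). Of 28 hepatocyte transcription factors, 5 were lower and 1, Cebpd, was higher (1.07). Cebpa went from 13.35 to 12.25 and Onecut1 from 9.08 to 7.88, and Tbx3 (-1.28, and -0.36) and Esr1 (-1.14, and -0.35) were lower against WT but not by 2-fold against Alb-c-Myc. Hnf4a (-0.33), Foxa2 (-0.59) and Prox1 (-0.02) were within 2-fold. Among 25 pericentral and Wnt genes, 4 were higher and 4 lower, the glutamine synthetase Glul differed by -0.42 and the Wnt target Axin2 by -0.01.

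Few genes of protein synthesis and disposal passed 2-fold, while those of ribosomes lay slightly above WT and level with Alb-c-Myc. Of 21 small-subunit and 22 large-subunit ribosomal protein genes with probe sets of their own, 0 and 1 were past 2-fold, with medians of 0.40 and 0.42 against WT and 0.10 and 0.06 against Alb-c-Myc. The exception, Rpl12, had 1.16 and -0.51. Above 0 against WT were 20 of the 21 and 21 of the 22 genes, 29 of 33 genes of 40S maturation and 30 of 31 of the nucleolus and 60S maturation. The 33 genes of 40S maturation had a median of 0.35 against WT and -0.01 against Alb-c-Myc, with 0 past 2-fold against WT, and the 31 genes of the nucleolus and 60S maturation had 0.51 and 0.00, with 4 genes past 2-fold against WT and 0 against both, Nop58 (8.68 to 10.62) being the highest. Eif6, which keeps free 60S subunits from joining 40S subunits, was the single one of 26 translation factors past 2-fold, at 11.31 on WT, 12.75 on ΔS6 and 11.42 on Alb-c-Myc. Of 19 aminoacyl-tRNA synthetases 2 were higher than WT, a share near the 9.12% of all kept genes, and 0 were higher than both references. The 31 proteasome genes and the 46 genes of oxidative phosphorylation had medians of -0.00 and -0.10 with 0 genes past 2-fold. Of 21 genes of the unfolded protein response, 0 were higher and 2 were lower, Derl3 (9.78 to 7.78) and Herpud1 (13.18 to 11.93), and 18 of the 21 lay below 0. In the amino acid response, Ddit3 (8.73 to 10.79) and the serine enzyme Psat1 (5.74 to 9.65, but 1.55 against Alb-c-Myc) were higher, Chac1 was lower (9.12 to 7.51) and Atf4 (-0.11) and Trib3 (0.52) were within 2-fold. Of 15 heat shock genes, 1 was lower, Hspa1b (-1.03). Of 27 lysosomal genes 3 were higher, a share near the 9.12% of all kept genes. These were Ctss, Cd68 and Lgmn, which are also on the macrophage or antigen presentation lists.

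Stress and cell cycle genes were higher, the latter in part only against WT. Of 39 p53 targets, 18 were higher than WT and 1, Plk3, was lower (-1.28), and 15 were higher than both references. After Psrc1 the leading genes were the BH3-only gene Pmaip1 (5.14 to 9.47), the arrest gene Cdkn1a (8.89 to 12.57) and Phlda3 (7.86 to 10.98), whereas the targets Bbc3 (0.06), Fas (0.32), Sesn2 (0.21) and Perp (-0.09) were within 2-fold. Of 29 death and survival genes, 7 were higher and 0 lower, including the necroptosis genes Mlkl (7.92 to 9.73) and Ripk3 (6.51 to 7.65). Among 34 genes of AP-1 and the immediate early response, 15 passed 2-fold upward and 0 downward, including them Ier3 (6.49 to 10.45), Fos (3.45) and Klf6 (7.31 to 10.02), with Zfp36 (-0.29) and Fosl1 (0.02) within 2-fold. Of 46 mitosis genes, 31 were higher than WT and 10 were higher than both, with medians of 1.47 and 0.73. Of the 46, 10 were under 6 on WT and so kept only through ΔS6. The median against WT over all 47 mitosis genes on the array was also 1.47. Of 38 DNA replication genes, 12 were higher than WT and 7 than both, and 2 were lower than both, Mcm10 and E2f8 (-1.05). Among the higher genes were Mcm3 at 1.63 and 1.69 and Mcm4 at 1.52 and 1.74 against WT and Alb-c-Myc. Cyclin Ccnd1 had 10.59 on WT, 12.23 on ΔS6 and 9.69 on Alb-c-Myc, and Cdkn2b was higher by 1.86 and 1.97.

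Gene families gave a view that used no list. Symbols were grouped by their stem, and 683 stems had 4 or more kept genes. Medians were taken over kept genes only, so they lean upward in families with members kept only through ΔS6. Such members were Bex1 (4.34 on WT), Anxa13 (5.52), Tnfaip8 (5.65) and Ms4a6d (5.95), among others. The highest medians were those of Saa (2.97 over 4 genes), Bex (2.56), the antibody receptors Fcgr (2.17), Tnfaip (1.82), Ier (1.74), beta-tubulins (1.73 over 8), the leukocyte membrane family Ms4a (1.52 over 11), annexins (1.48 over 10), Vsig (1.48) and the chemokines Cxcl (1.47 over 11). Within families the members split. In the Bex family Bex1, Bex4 (2.94) and Bex3 (2.18) were higher and Bex2 was at 0.57. Among Cxcl genes, Cxcl13 (8.13 to 12.41), Cxcl14 (6.80 to 9.63) and Cxcl10 (7.59 to 10.41) were higher and Cxcl12 was at -0.13. In the Ms4a family the myeloid members Ms4a6d (2.52) and Ms4a6b (2.35) were higher and the B cell antigen Ms4a1, or CD20, was at -0.28.

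The lowest medians belonged mostly to families of metabolic enzymes. They were Hsd3b (-2.34 over 5 genes), the acetyltransferases Nat8f (-1.74), the medium-chain acyl-CoA ligases Acsm (-1.47), Cyp2d (-1.12 over 6), the phosphate and urate carriers Slc17a (-1.05), Cyp2c over 11 genes (-0.46 against Alb-c-Myc), Pcsk (-0.86), carboxylesterases Ces (-0.80 over 12), Acad (-0.78) and Nlrp (-0.76). Nat8f1 went from 12.73 to 10.24, and Acsm5 by -1.86, Acsm3 by -1.51 and Acsm1 by -1.43. In the Hsd3b family, Hsd3b7, the bile acid enzyme, was at -0.89 and Hsd3b1 at -0.30, against -2.34 for Hsd3b3. In the Cyp2c family, Cyp2c65 was higher (4.42 to 7.18) while Cyp2c38 and Cyp2c54 were lower. In the Ces family 6 of 12 were lower and Ces1g was at -0.34.

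**Figure D5:**
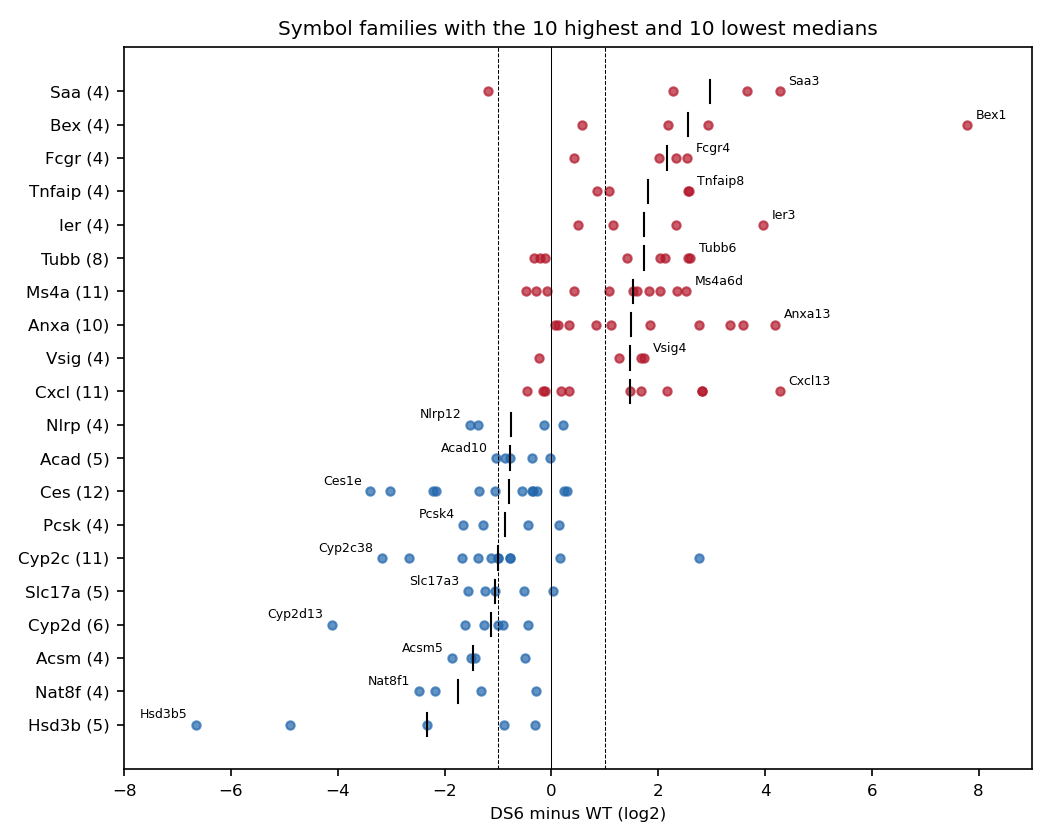
Log2 ratio of ΔS6 to WT for every kept gene (points) of the symbol families with the 10 highest and 10 lowest medians (number of genes in brackets); black bars are family medians and dashed lines mark 2-fold. The gene farthest from 0 in each family is labelled; Bex1 at 7.79 and Hsd3b5 at -6.65 lie far from their relatives.

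Runs of neighbouring genes past 2-fold in the same direction were found in 33 places. Over all kept genes 9.12% were higher and 3.22% lower, and how many such runs a random gene order would give was not tested. With 14152 kept genes placed in the order of the RefSeq gene table, 23 runs of 3 or more consecutive genes were all at least 2-fold higher than WT and 10 were all lower, and in 26 of the 33 every gene was also past 2-fold against Alb-c-Myc. Many runs are gene families that arose by local duplication. On chromosome 17 the trefoil genes Tff3, Tff2 (7.33 to 10.31) and Tff1 (10.42 to 12.32) followed the sterol carrier Abcg1 (1.33), and the class II genes H2-Ab1, H2-Aa and H2-Eb1 formed another run. On chromosome 3 S100a6, S100a8 and S100a9 were consecutive among the kept genes, and Hsd3b5, Hsd3b2 and Hsd3b3 formed a run of falls. The complement genes C1qb, C1qc and C1qa (2.21, 2.05 and 1.76) made a run on chromosome 4. Runs of unrelated genes were fewer, such as Ier3, Flot1 (1.06) and Tubb5 on chromosome 17 and Msn (1.50), Vsig4 (1.74) and the p53 target Eda2r (2.46) on chromosome X. On chromosome X, Bex1, Tceal9 (1.74) and Bex3 were consecutive. The run of falls Serpina11 (-1.40), Serpina9 (-1.67), Serpina12 and Serpina4-ps1 lay on chromosome 12, whereas the clade A members Serpina1b (-0.01) and Serpina10 (-0.06) were not past 2-fold. In the Cyp2c run on chromosome 19, which held Cyp2c38, Cyp2c68, Cyp2c37, Cyp2c54 and Cyp2c50, Cyp2c38 alone stayed past 2-fold against Alb-c-Myc in the same direction.

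Promoter letters were compared because genes of tissues and of acute responses often start at a TATA box and widely used genes at CpG-rich promoters. Of the kept genes, 11368 matched a RefSeq promoter of GRCm38.p6, 250 bases before to 50 after the start, and the first listed was used for each gene. TATAAA on either strand was present in 8.23% of all these promoters, in 15.9% of 264 promoters of genes 4-fold higher than WT and in 18.2% of 77 promoters of genes 4-fold lower. GGGCGG on either strand was present in 59.7% of all, 53.8% of the higher and 24.7% of the lower group, with mean GC contents of 57.2% and 50.3% in the latter groups. For TGACTCA or TGAGTCA the shares were 4.01%, 6.82% and 3.90%, for TTTGAA 12.2%, 18.6% and 19.5%, for GTTAAT 4.43%, 3.41% and 9.09%, and for CACGTG 9.76%, 7.95% and 2.60%. CCAAT was near equal at 37.9%, 37.5% and 37.7%. TTGCGCAA was found in 0.238%, 0.379% and 0% and TGACGTCA in 2.86%, 3.03% and 0%. The higher and lower groups of these shares were chosen against WT alone. Among those also past 2-fold from Alb-c-Myc in the same direction, TATAAA was in 16.7% of 252 higher and 16.7% of 66 lower promoters. GGGCGG was in 52.4% and 27.3% of them, TTTGAA in 16.7% and 16.7%, and GTTAAT in 3.57% and 7.58%. A motif found or missed here describes these letters and shows no binding, and a TATAAA counted on either strand need not be a TATA box. In the promoters of S100a9, Cpb1 and Asic5, not printed below, the first TATAAA on the strand of the gene begins at 0, 35 and -48 relative to the start. As examples of such promoters on both sides of the comparison, 3 with TATAAA on the strand of the gene are printed, from the fetal gene Afp and the neutrophil gene S100a8, both higher on ΔS6, and from the P450 gene Cyp2c38, lower on ΔS6. They lie at chr5:90490464-90490763 (plus strand), chr3:90668821-90669120 (plus strand) and chr19:39463026-39463325 (minus strand), each is written 5′ to 3′ on the strand of the gene, and capitals mark TATAAA, which begins at -7, -30 and -31 relative to the start.
Afp: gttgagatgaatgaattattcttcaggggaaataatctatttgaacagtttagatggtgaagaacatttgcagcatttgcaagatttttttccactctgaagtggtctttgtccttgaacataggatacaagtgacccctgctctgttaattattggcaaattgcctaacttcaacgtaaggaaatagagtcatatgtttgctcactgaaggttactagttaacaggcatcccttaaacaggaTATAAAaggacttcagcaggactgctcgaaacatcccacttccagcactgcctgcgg
S100a8: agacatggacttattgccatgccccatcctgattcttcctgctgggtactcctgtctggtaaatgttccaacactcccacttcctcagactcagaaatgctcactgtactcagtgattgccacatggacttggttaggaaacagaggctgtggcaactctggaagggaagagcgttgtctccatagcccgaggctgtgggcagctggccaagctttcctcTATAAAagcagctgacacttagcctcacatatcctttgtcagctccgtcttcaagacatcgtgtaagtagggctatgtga
Cyp2c38: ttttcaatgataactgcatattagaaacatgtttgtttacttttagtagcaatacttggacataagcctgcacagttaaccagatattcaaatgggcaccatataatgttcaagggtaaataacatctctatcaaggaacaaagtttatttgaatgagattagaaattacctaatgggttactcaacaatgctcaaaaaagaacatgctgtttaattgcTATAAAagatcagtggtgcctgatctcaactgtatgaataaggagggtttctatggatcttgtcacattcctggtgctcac

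The genes with the largest differences were also read in the presence of the c-Myc transgene. Of 345 genes at least 4-fold higher than WT and 2-fold higher than Alb-c-Myc, 120 were at least 2-fold higher on ΔS6:c-Myc than on Alb-c-Myc, or 34.8%, with a median of 0.67. Of 85 lower genes 61 passed 2-fold downward, or 71.8%, with a median of -1.44. Among all kept genes 2.5% were higher and 1.72% lower by as much. The genes were chosen on the ΔS6 array, where all of them had to pass against both WT and Alb-c-Myc. The Alb-c-Myc array thus enters both the choice and the ratio read here, which pushes the shares in the chosen direction.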

How the data were processed

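The deposited table holds, for each probe set, a log2 expression value on each of 4 pooled arrays, made by the authors; the submitters' processing notes name RMA (background correction, quantile normalization and probe summary) and affy, with versions not given in the sources used here. No detection calls or scanner files were used. Of 45101 probe sets, 34945 had 1 gene symbol in the platform annotation, 932 had several and 9160 had none. Differences were taken on the log2 scale; with 1 array per genotype there was no replicate, and the number of arrays limits the precision. Fold limits were 2, 4 and 8. Named genes were the 30 largest differences each way past 2-fold against both references, the 10 largest each way among bright genes and among genes not held against Alb-c-Myc, and in each of 73 lists the leading and textbook members. Members and lists were chosen with earlier results of these data known, and the mucosal list after its values were seen; genes that no such rule names, such as Usp2 and Sult2a2, were chosen after their values were seen. Promoters were matched by Entrez gene ID. The ratio steps were tested on simulated data. Alternatives were another reference array, scaling, floor and choice of probe set. Python 3.11.15 was used with pandas 2.3.3, numpy 2.4.6, SciPy 1.17.1, statsmodels 0.14.6 and matplotlib 3.10.9.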

Additional observations from a re-analysis of the deposited data

Results flagged for a closer look

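Among 1782 genes examined, 9 differed by at least 2-fold in opposite directions when Rps6 was deleted without and with the c-Myc transgene. The difference between the 2 settings was not tested, since each genotype had 1 array. The acute phase genes were higher without and lower with the transgene: Orm2 had 4.45 for ΔS6 minus WT and -1.02 for ΔS6:c-Myc minus Alb-c-Myc, Saa2 had 3.66 and -1.48, and Saa1 had 2.28 and -1.77. The ferritin receptor Scara5 had 2.55 and -1.74, and the keratin Krt23 had 1.04 and -1.09. The opposite order was seen for 3 female-biased or related P450 genes, with -1.68 and 2.65 for Cyp2c37, -1.88 and 4.22 for Cyp2b9 and -3.58 and 1.49 for Cyp2b13. The thioesterase Acot3 had -2.83 and 1.00. For the P450 genes and Acot3 the WT array was far above the Alb-c-Myc array, as were Xist and Sult3a1, and the part of the WT array in these values was not tested.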

How the results depend on the processing

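No paired analysis was possible because each genotype had 1 array, and no array could be left out for the same reason. The counts of genes past 2-fold, 4-fold and 8-fold stayed within 1.5 times the reported counts with the Alb-c-Myc reference and in 72 of 72 values under the other settings. Of 1782 genes, 8 were at least 2-fold from WT and changed sign with the Alb-c-Myc array as reference. Sign changes of genes under 2-fold against WT were not counted. Against Alb-c-Myc, Cyp2b9 had 2.00, Cyp2c37 3.66, Cyp2c50 0.0343, Cyp2c68 0.45, Gar1 -0.0016, Reg1 1.62, Rpl12 -0.51 and Rrp1b -0.0582. Without probe sets that can match several transcripts, Laptm5 had -0.49, Plagl1 -0.52 and Tmsb10 -0.19. The cause was not tested. With the Alb-c-Myc reference, 18 of 74 list medians moved by more than the tolerance of 0.27, and 9 of 444 did so under the other settings. Choice of probe set gave the largest shifts under those settings. A list median moved by up to 1.20 without probe sets that can match several transcripts, and by up to 0.79 with the mean over all probe sets of a gene. Dim genes have ratios compressed or set by an unmeasured floor, and no detection call bounds them here.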

Other observations

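The probe set shared by the imprinted RNA H19 and its microRNA Mir675 is named by 2 symbols and so entered none of the counts. It had a log2 value of 5.63 on WT, 14.79 on ΔS6, 6.17 on Alb-c-Myc and 13.80 on ΔS6:c-Myc, a larger difference from WT than that of Bex1 (7.79). Both arrays of mice with the Rps6 deletion were high, and both with intact Rps6 were low.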
